A study of Sus scrofa with 18 samples.

Results

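FOS, FOSL1, FOSL2, JUN and ATF3 were examined in right ventricular tissue of pigs, at baseline and in failure after ligation of coronary arteries. The members were all probe sets that the probe table assigns to exactly 1 of these 5 symbols, which gave 7 probe sets (3 for FOSL1 and 1 for each other gene) among 23935 tested, and 5 genes among 6765 named ones. In the probe table, 4 further probe sets carry FOSL2 together with FRZB, a secreted Wnt antagonist, and they were not counted as members. FOSB, JUNB and JUND were listed among the related factors below, but no tested probe set is assigned to any of them alone, so they were not measured.

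AP-1 is a dimer of basic leucine zipper proteins, formed by a FOS family protein with a JUN family protein or by JUN proteins among themselves. FOS and JUN are immediate early genes, which are transcribed within minutes of a stimulus such as stretch, growth factors or ischemia, without new protein synthesis, and whose messages are short-lived. FOSL1 and FOSL2 encode FOS-related proteins that usually appear later and lack the strong activation domain of FOS. ATF3 belongs to the ATF/CREB branch of the same superfamily, pairs with JUN proteins, often represses its targets and is induced in the heart and other tissues by stress signals, including the integrated stress response through ATF4.

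Right ventricular free wall was sampled in 9 pigs, a cross of Hampshire, Yorkshire and Swedish Landrace. Each animal gave a baseline sample and a failure sample, so there were 9 arrays in each group and every pig was its own control. For 6 pigs (6, 8, 9, 11, 12 and 13, called label set 1) the labels give 120 min of ischemia for the failure sample. For the other 3 (5, 10 and 14, label set 2) they give coronary ligation on the right ventricular free wall, a right atrial pressure above 20 mmHg as the definition of failure and a weight of 30 to 40 kg. All 9 animals underwent ligation, so time after the first sample, repeated sampling and failure cannot be told apart.

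The values are log2 intensities as deposited, and array medians lay between 5.59 and 5.66. Of the ventricular cardiomyocyte markers, 11 of 11 measured lay at or above the 90th percentile of the baseline arrays, and the ventricular genes MYH7 and MYL2 averaged 14.96 and 14.73. GAPDH signal at the 3' end minus that at the 5' end, a log2 difference that grows as RNA degrades, was 2.61 at baseline and 3.55 at failure in pig 5, against 0.306 to 2.17 on the other arrays. Red blood cell transcripts were lower at failure: 5 of 5 measured markers had negative changes, 3 of them past the threshold of the limma fit used below, and their mean level ran from 6.60 to 7.88 at baseline and from 5.64 to 6.91 at failure. The part of blood content in the values below was not tested. The tissue was measured in bulk, so fewer cells of a type and less RNA per cell cannot be told apart.

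No AP-1 gene, and not ATF3, passed the test of failure against baseline. In the paired limma fit, 0 of 7 member probe sets passed an adjusted p of 0.05 in either direction, where 16 of all 23935 tested passed (0.0668%), 5 of them higher (0.0209%) and 11 lower (0.046%). At an unadjusted p under 0.05 the members again gave 0 of 7, against 1470 probe sets overall (6.14%). No member moved the same way in all 9 pigs, as 128 probe sets did (0.535%). Baseline and failure values overlapped for each member, and no probe set on the array had groups that did not overlap (0%). FOS, JUN and ATF3 lay high on the arrays already at baseline, FOS and ATF3 differed by more than 10-fold between animals, and ATF3 and FOSL2 had a similar order of animals in both samples.

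FOS, the founding partner of JUN in AP-1, was already high at baseline. Its baseline log2 intensity had its lowest value of 8.43 in pig 11, a median of 10.99 and its highest value of 12.35 in pig 6, a 15.1-fold span. On the baseline arrays it lay between the 86.4th and the 99.1st percentile of all tested probe sets, with a median of 97.7. A percentile describes the position of a probe set and not a number of transcripts, because probe sets differ in affinity.

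At failure FOS ran from 9.47 in pig 11 over a median of 10.51 to 12.98 in pig 6, an 11.4-fold span, and its median percentile was 97.4. The same pigs were lowest and highest in both samples, but the animals between them changed places. The failure value of FOS was lower by more than 1 log2 unit in pigs 8 and 13 (-1.84 and -1.07) and higher by more than 1 in pigs 11 and 12 (1.03 and 1.77). In pigs 5 and 14 the difference was -0.01 each.

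Positive and negative differences nearly cancelled in the mean. FOS averaged 10.76 ± 1.31 (SD, n = 9) at baseline and 10.75 ± 1.04 at failure, a change of -0.01 with a moderated standard error of 0.28 (adjusted p = 0.997, limma), and it was higher in 4 of 9 pigs. The 95% interval of the change reached from -0.62 to 0.59, or from 0.650-fold to 1.51-fold. An exact sign-flip permutation test over the 9 pigs gave a two-sided p of 0.945. limma draws the error of each probe set toward a common value, and from the spread of FOS alone the standard error was 0.372.

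Differences within single animals were far from that mean. A change past 1 log2 unit in at least 4 pigs, as in FOS, was found in 36 of 23935 probe sets (0.15%), and in at least 1 pig in 798 (3.33%). The SD of the FOS change over pigs, 1.12, lay at the 99.9th percentile of all tested probe sets, whose median SD was 0.216. The mean change of FOS took the other sign without pig 8 (0.21), without pig 9 (0.10) and without pig 13 (0.12), and no adjusted p in these fits passed the threshold.

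**Figure D1:**
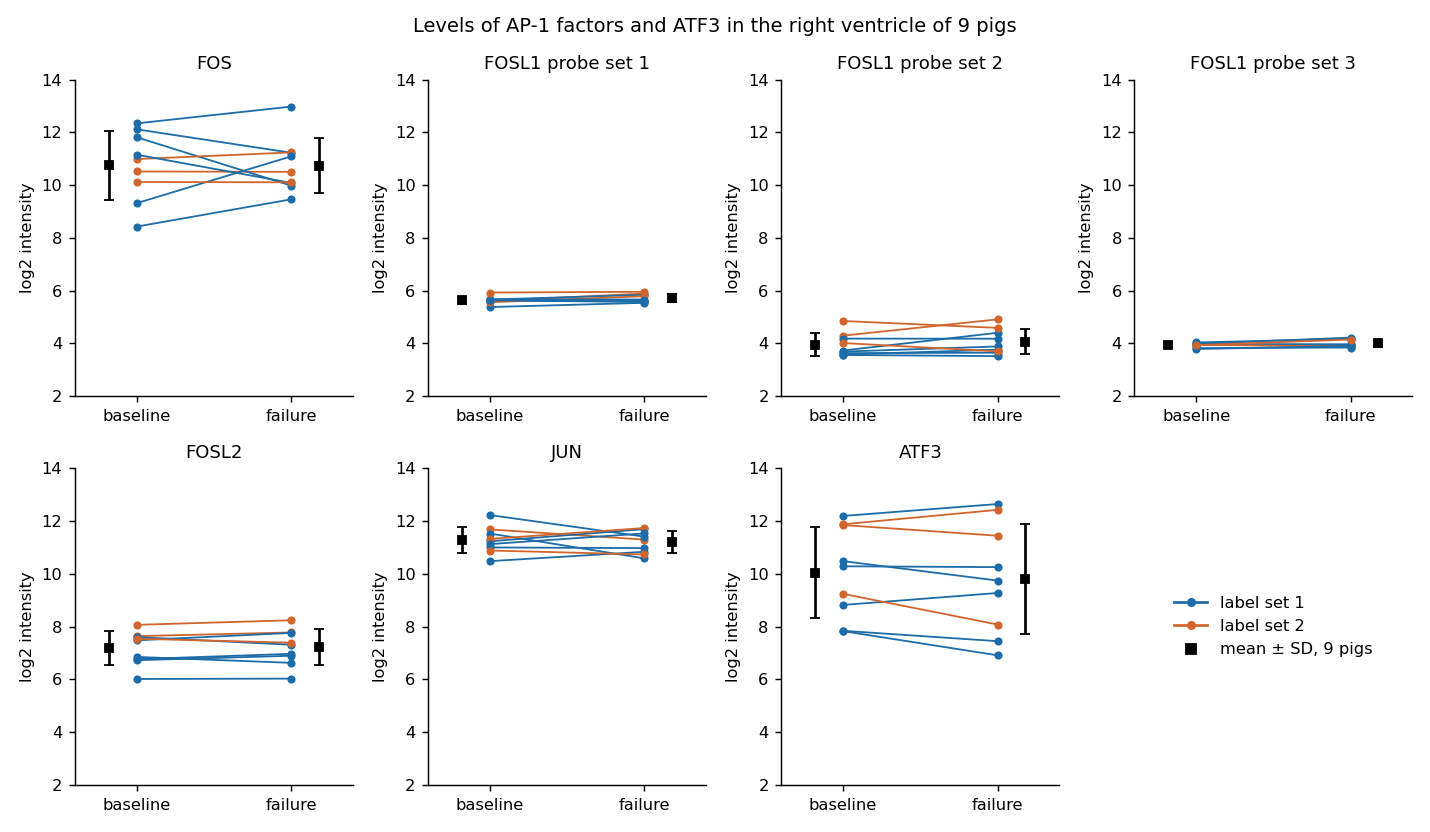
Log2 intensity of each member probe set at baseline and failure (1 panel a probe set, those of FOSL1 numbered by mean level). Lines are for each of the 9 pigs, coloured by label set, and black marks for the group means ± SD. All panels have the same vertical range. ATF3 lines span the widest range and cross for pigs 6 and 8 and for pigs 12 and 14, many FOS lines cross, and the group means of all 5 genes lie close together.

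JUN, the partner that binds DNA with FOS, FOSL1, FOSL2 or ATF3, was high in every animal. At baseline it ran from 10.49 in pig 11 over a median of 11.24 to 12.23 in pig 9, and its percentile on the arrays lay between 97.0 and 99.0. At failure the lowest value was 10.59 in pig 8, the median 11.30 and the highest 11.74 in pig 10, with percentiles of 97.0 to 98.7. The span between animals was 3.36-fold at baseline and 2.22-fold at failure, narrower than that of FOS in both samples.

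JUN averaged 11.28 ± 0.50 at baseline and 11.20 ± 0.43 at failure (SD, n = 9). Its change was -0.08 with a standard error of 0.14 and a 95% interval of -0.38 to 0.23 (adjusted p = 0.964, limma), and it was higher in 4 of 9 pigs. From the spread of JUN alone the standard error was 0.181. The exact sign-flip permutation p was 0.656. The differences farthest from 0 were -0.94 in pig 8 and -0.82 in pig 9, and pigs 6, 10, 11 and 12 were each higher by 0.35 to 0.46. Without pig 8 or without pig 9 the mean change became 0.03 or 0.02.

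FOSL2, a FOS-related protein without the strong activation domain of FOS, lay in the upper part of the baseline arrays. Its baseline values ran from 6.02 in pig 11 over a median of 7.48 to 8.07 in pig 10, a 4.15-fold span, and its median percentile was 75.5 (55.3 to 82.4). At failure the values ran from 6.03 in pig 11 over 7.31 to 8.24 in pig 10, a 4.64-fold span. Pig 11 was lowest and pigs 10 and 5 were highest in both samples.

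The 2 values of FOSL2 in a pig lay close together. Its changes lay between -0.29 in pig 9 and 0.28 in pig 6, and it was higher in 6 of 9 pigs. FOSL2 averaged 7.19 ± 0.64 at baseline and 7.22 ± 0.67 at failure (SD, n = 9), a change of 0.03 with a standard error of 0.07 and a 95% interval of -0.11 to 0.18 (adjusted p = 0.970, limma; exact sign-flip permutation p = 0.613). The SD of the baseline level lay at the 98.2nd percentile of all probe sets, and the SD of the change at the 45.4th. The probe sets shared by FOSL2 and FRZB had changes from -0.03 to 0.13, and 0 of 4 passed. Among them, the probe set with the change of 0.13 had a baseline SD of 1.33 and a standard error of the change of 0.25. The others had baseline SDs of 0.24 to 0.34 and standard errors of 0.07 to 0.08.

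FOSL1, the FOS-related protein also called FRA-1, is represented by 3 probe sets with different patterns. Its brightest probe set ran from 5.38 in pig 8 over 5.64 to 5.93 in pig 14 at baseline and from 5.54 in pig 8 over 5.67 to 5.96 in pig 14 at failure, close to the median of the arrays. The next ran from 3.56 in pig 13 over 3.73 to 4.85 in pig 10 at baseline and from 3.52 in pig 13 over 3.89 to 4.91 in pig 5 at failure. The last stayed between 3.79 and 4.04 at baseline and between 3.85 and 4.22 at failure. These 2 lay at median percentiles of 21.5 and 25.1 at baseline, and no detection call was used, so a level near background was not told apart from a low level.

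Mean changes of the 3 FOSL1 probe sets were 0.09, 0.12 and 0.07 with standard errors of 0.06, 0.10 and 0.05, and the adjusted p-values in limma were 0.889, 0.916 and 0.912. The first was higher in 6 of 9 pigs and the others in 5 of 9. Only the middle one differed by more than 2-fold between animals (2.44-fold at baseline). It also followed other members over the 18 arrays, with r = 0.795 for ATF3 and r = 0.792 for FOSL2, whereas the brightest one had r = -0.058 with ATF3. The brightest one stands for FOSL1 below.

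ATF3, the stress-induced ATF/CREB member, had the widest span of the 5 genes. Its baseline level ran from 7.83 in pig 11 over a median of 10.29 to 12.20 in pig 9, a 20.7-fold span. Pigs 9, 10 and 5 lay at 11.85 to 12.20, pigs 6 and 8 at 10.29 and 10.48, pigs 14 and 12 at 9.24 and 8.82, and pigs 13 and 11 at 7.84 and 7.83. The median percentile on the baseline arrays was 96.3, with 80.1 in the lowest animal and 99.0 in the highest.

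At failure ATF3 spanned 53.3-fold, from 6.91 in pig 11 over a median of 9.75 to 12.65 in pig 9. Its percentile was 68.2 in the lowest animal and 99.3 in the highest. Pigs 9, 10 and 5 were again the highest and pigs 13 and 11 again the lowest, and the 2 samples differed in order only in that pigs 6 and 8, and pigs 12 and 14, changed places. The lowest 2 animals belonged to label set 1, and the highest 3 to label set 1 (pig 9) and label set 2 (pigs 10 and 5).

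ATF3 averaged 10.05 ± 1.71 at baseline and 9.81 ± 2.09 at failure (SD, n = 9). The change was -0.24 with a standard error of 0.17 and a 95% interval of -0.60 to 0.11, or 0.660-fold to 1.08-fold (adjusted p = 0.895, limma), and ATF3 was higher in 3 of 9 pigs. From the spread of ATF3 alone the standard error was 0.212, wider than the moderated one behind this interval. An exact sign-flip permutation test gave p = 0.293. The differences were -1.16 in pig 14, -0.92 in pig 11 and -0.74 in pig 8, and they were 0.55 in pig 10 and 0.45 in pigs 9 and 12. In pig 6 the 2 samples differed by -0.03.

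**Figure D2:**
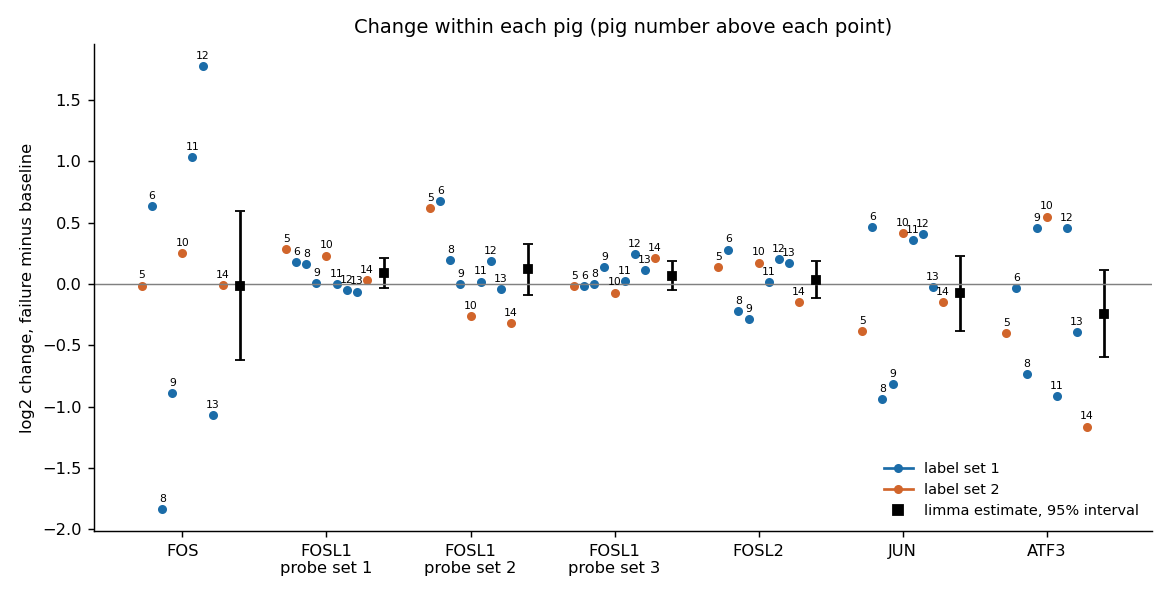
Failure minus baseline (log2) of each member probe set, with a point for each of the 9 pigs numbered and coloured by label set and a bar with whiskers for the mean and its 95% interval from limma. FOS changes run from -1.84 to 1.77 and ATF3 changes from -1.16 to 0.55, and every interval includes 0.

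Measured against all probe sets, ATF3, FOS, FOSL2 and JUN were among the most variable transcripts of the baseline arrays. Baseline SDs of ATF3, FOS, FOSL2 and JUN lay at the 99.9th, 99.8th, 98.2nd and 96.1st percentile, where the median SD of all tested probe sets was 0.200. Those of the FOSL1 probe sets, from brightest to dimmest, lay at percentiles of 20.2, 93.7 and 1.41. A baseline span of at least 2 log2 units was present in ATF3, FOS and FOSL2, 3 of 7 member probe sets, and in 438 of all probe sets (1.83%). For the change, FOS, ATF3 and JUN lay at the 99.9th, 99.0th and 97.9th percentile of SD, and FOSL2 near the middle. The FOSL1 probe sets, in the same order, lay at percentiles of 8.51, 88.4 and 4.42. No test was made of these positions.

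**Figure D3:**
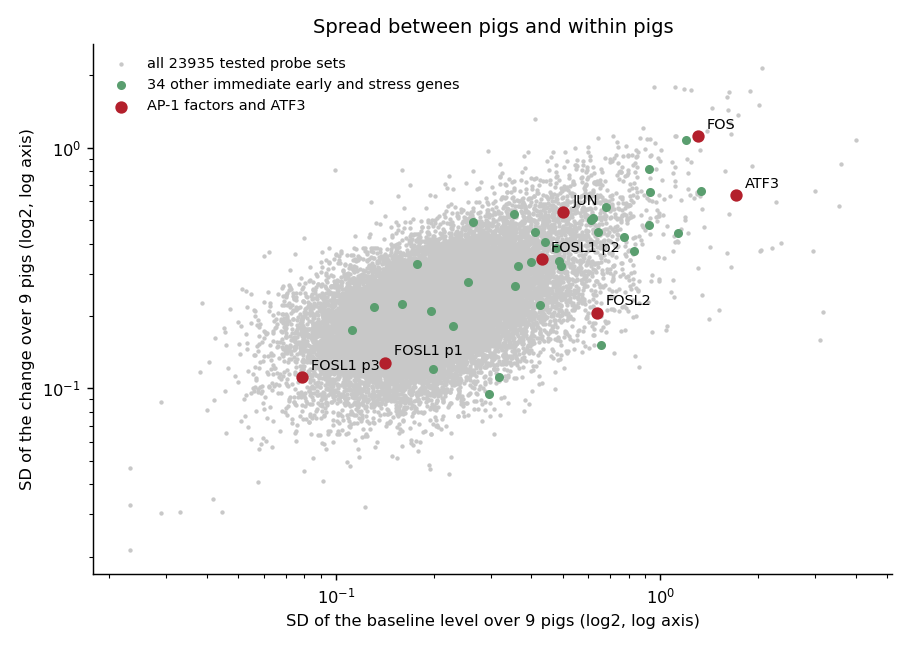
SD of the baseline level over 9 pigs (horizontal axis) against SD of the change over 9 pigs (vertical axis), both of log2 values on log axes, for all 23935 tested probe sets (grey), the 34 other immediate early and stress genes (green) and the 7 member probe sets (red), with FOSL1 probe sets numbered p1 to p3 by mean level. FOS and ATF3 lie at the upper right, and FOSL2 has a baseline SD of 0.64 with a change SD of 0.21.

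Whether an animal that was high at baseline was also high at failure was examined for each member. This was tested over 9 pigs with exact permutation of all orders, and p-values were adjusted over a family of 40 relations, which also held the pairs of members and the comparison with RNA integrity. For ATF3 the baseline and failure levels had Pearson's r = 0.964 (exact permutation p = 0.000234, adjusted p = 0.00601) and Spearman's rho = 0.967 (exact permutation p = 0.000165, adjusted p = 0.00661). Without pigs 11 and 13, the 2 farthest from the median, r came to 0.930 (adjusted p = 0.0952, exact permutation over 7 pigs). In label set 1 alone it came to 0.969 (adjusted p = 0.0833, exact permutation over 6 pigs). The call was lost in both with fewer pigs. With 6 pigs there are too few orders for a single relation to pass on its own after adjustment over 40. The loss in label set 1 therefore says nothing about the relation.

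For FOSL2 the same relation had r = 0.952 (exact permutation p = 0.0003, adjusted p = 0.00601) and rho = 0.883 (exact permutation p = 0.00308, adjusted p = 0.0205). It was 0.906 without pigs 11 and 13 (adjusted p = 0.0952, exact permutation) and 0.919 within label set 1 (adjusted p = 0.143, exact permutation), so this call too was lost in both. An r of at least 0.95 was reached by 240 of all tested probe sets (1%), of at least 0.9 by 1009 (4.22%), and the median over all was 0.511.

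FOS and JUN did not pass this test. FOS had r = 0.568 (exact permutation p = 0.111, adjusted p = 0.239; rho = 0.483, adjusted p = 0.352) and JUN had r = 0.333 (exact permutation p = 0.388, adjusted p = 0.615; rho = 0.283, adjusted p = 0.639). The brightest FOSL1 probe set had r = 0.625 (exact permutation p = 0.0519, adjusted p = 0.189; rho = 0.433, adjusted p = 0.40), which became -0.282 without the 2 pigs farthest from the median and so rests on them. The differences between these correlations were not tested.

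**Figure D4:**
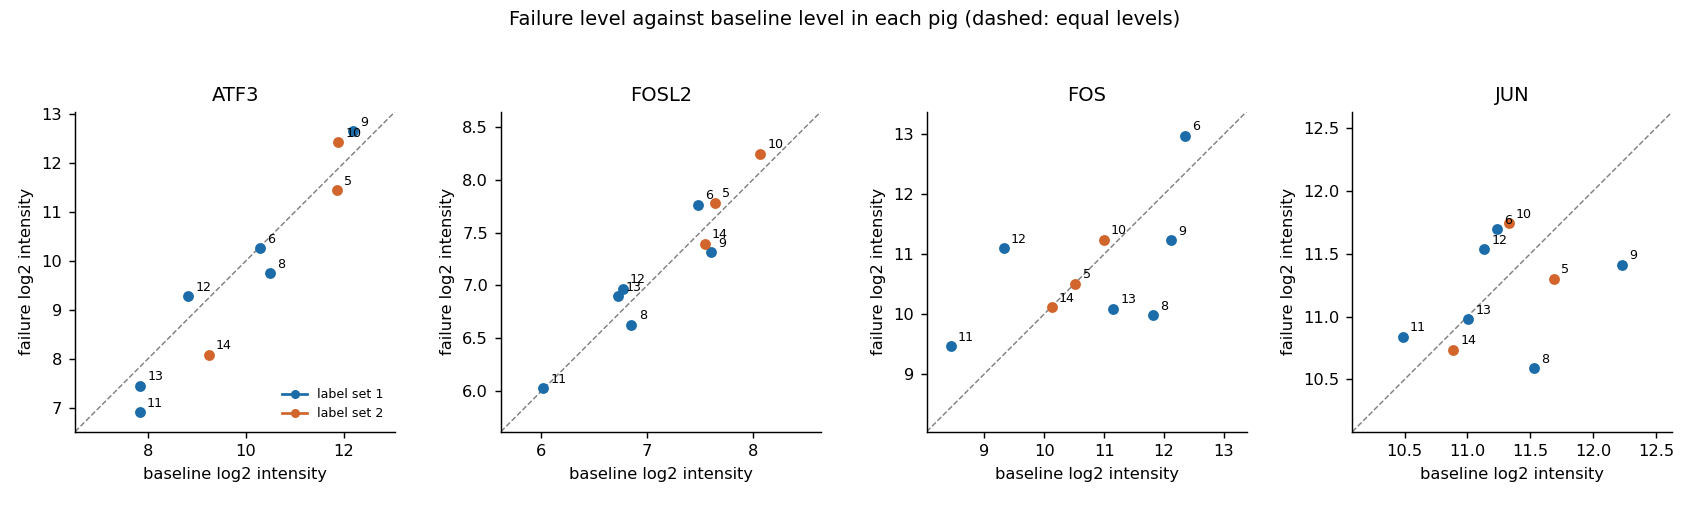
Failure level against baseline level (log2 intensity) of ATF3, FOSL2, FOS and JUN, with a point for each of the 9 pigs, numbered and coloured by label set, and a dashed line where both levels are equal. ATF3 and FOSL2 points follow the line (r = 0.964 and 0.952), and FOS and JUN points scatter around it (r = 0.568 and 0.333).

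Pairs of members varied together between animals in some of the comparisons. At baseline JUN and ATF3 had r = 0.848 (exact permutation p = 0.00203, adjusted p = 0.0270) and rho = 0.90 (adjusted p = 0.0205), with r = 0.785 without pigs 9 and 11 (adjusted p = 0.263, exact permutation) and 0.930 within label set 1 (adjusted p = 0.0556, exact permutation). At failure FOS and JUN had r = 0.821 (exact permutation p = 0.00314, adjusted p = 0.0314) and rho = 0.883 (adjusted p = 0.0205). Without pigs 6 and 11 their r was 0.929 (adjusted p = 0.0952, exact permutation). It was 0.875 within label set 1 (adjusted p = 0.143, exact permutation) and 0.835 without pig 5 (adjusted p = 0.0660, exact permutation). Neither relation passed in these smaller sets. In label set 1 both had a higher r than over all 9 pigs, but with 6 pigs a single relation could not pass on its own after adjustment. At baseline pig 11 was lowest and pig 9 highest in both JUN and ATF3, and at failure pigs 6 and 10 were the 2 highest in both FOS and JUN.

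Another 2 relations passed by rank and not by r. FOSL2 and ATF3 at baseline had rho = 0.883 (exact permutation p = 0.00308, adjusted p = 0.0205) but r = 0.814 (exact permutation p = 0.00839, adjusted p = 0.0559), and r was 0.658 without the 2 farthest pigs. With the mean of all probe sets of each gene, which left this r as it was and altered others of the family, its adjusted p was 0.0419 by exact permutation. The changes of FOSL2 and JUN had rho = 0.883 (adjusted p = 0.0205) but r = 0.807 (exact permutation p = 0.0116, adjusted p = 0.0665), which became 0.437 without pigs 8 and 9, the pigs in which both genes had their lowest changes, so this relation rests on them. Without pig 5 it passed by r (0.883, adjusted p = 0.0456, exact permutation over 8 pigs). The 26 other relations had r from -0.43 to 0.82, and the smallest adjusted p of r among them was 0.0559 by exact permutation.

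RNA integrity, by the GAPDH difference alone, was compared in the same family. The change in the GAPDH 3' to 5' difference and the changes of the 5 genes had r between -0.075 and 0.551, the latter for FOSL2, and the smallest adjusted p was 0.239 by exact permutation over 9 pigs. For the levels themselves, in 10 relations computed after the data had been seen, no adjusted p was under 0.936 by exact permutation. Within label set 1 the GAPDH difference and the ATF3 level at failure had r = -0.851 over 6 pigs. Without pig 5, whose GAPDH difference was the highest, the baseline and failure levels of ATF3 and FOSL2 had r = 0.966 and 0.948. The same difference for actin was highest at baseline in pig 9 (5.97), which also had the highest baseline JUN and ATF3, and in pig 5 (5.93). The relation of the actin difference to the members was not tested.

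Changes did not differ detectably between members. Of 10 pairs, the difference between the mean changes lay between -0.10 (FOS minus FOSL1) and 0.33 (FOSL1 minus ATF3, standard error 0.21, higher in 6 of 9 pigs), and adjusted p-values ran from 0.798 to 0.871 in the exact sign-flip permutation test. Standard errors of the pairs with FOS were 0.247 to 0.382.

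The label sets were compared as an interaction in limma. None of 7 member probe sets passed, nor did any probe set on the array (0%), and at an unadjusted p under 0.05 there were 1356 (5.67%). Adjusted p-values of the members lay between 0.943 and 0.998. The mean difference in FOS was -0.06 ± 1.41 in label set 1 (SD, n = 6) and 0.08 ± 0.15 in label set 2 (SD, n = 3), and the 4 pigs past 1 log2 unit all belong to label set 1. For ATF3 it was -0.20 ± 0.59 and -0.34 ± 0.86. With 3 pigs in label set 2 the intervals are wide, from -1.20 to 1.46 for the difference in FOS and from -0.92 to 0.63 for that in ATF3.

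Genes with a pattern most like each member were found by Pearson's r over the 18 arrays after removal of the group means, with the 2 arrays of a pig not independent of each other. ATF3 was followed most closely by IER5, an immediate early gene (r = 0.945), IFRD1, a transcriptional co-regulator (r = 0.945), and MAT2A, which makes S-adenosylmethionine (r = 0.943). For FOS these were ZFP36, which destabilises AU-rich messages (r = 0.902), the stress gene GADD45B (r = 0.833) and the MAP kinase phosphatase DUSP1 (r = 0.833). JUN was closest to RHOB, an inducible small GTPase (r = 0.885), IER5 (r = 0.824) and EGR1, an immediate early zinc finger factor (r = 0.822).

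FOSL2 was closest to PPP1R15A, which directs dephosphorylation of eIF2 alpha (r = 0.922), the immediate early gene IER3 (r = 0.90) and XIRP1, an actin-binding protein of the intercalated disc (r = 0.868). The brightest FOSL1 probe set was closest to CACNG3, a calcium channel gamma subunit (r = 0.838), the growth factor receptor FGFR2 (r = 0.825) and UBE3D (r = 0.824), none of them immediate early genes. None of these 14 genes passed the test of failure against baseline. IER5 had a baseline level of 9.58 ± 1.14 (SD, n = 9), from 7.86 to 11.02, and IFRD1 one of 9.52 ± 0.72.

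Among the members themselves, measured the same way, FOSL2 and ATF3 had r = 0.763, FOS and JUN 0.741, JUN and ATF3 0.733 and FOS and ATF3 0.549. The brightest FOSL1 probe set had r between -0.124 and 0.375 with the other 4 genes.

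Other immediate early and stress genes, which respond to many of the same signals, were measured for 34 of 51 listed. Of these, 0 passed the failure test in either direction and 6 had an unadjusted p under 0.05 in limma, where 6.14% of all tested probe sets did. That share is also the background for the same count in the lists below, and no list was tested as a set. Of the genes here, 22 were higher and 12 lower with a median change of 0.04, where the median over all tested probe sets was 0.00. At baseline 17 of 34 lay at or above the 90th percentile of the arrays, with a range from 10.8 to 98.4. Among those with the smallest p, the nuclear receptor NR4A3 had a change of -0.31 (SE 0.10, adjusted p = 0.591, limma), the factor KLF9 one of 0.16 (adjusted p = 0.637, limma; higher in 8 of 9 pigs) and the G protein regulator RGS2 one of 0.25 (adjusted p = 0.695, limma).

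Many genes of this list followed the members from animal to animal. With ATF3, 24 of 34 had r above 0.5 (70.6%), against 348 of the 6760 genes outside the members (5.15%). With FOS there were 20 of 34 (58.8%, against 2.34%) and with JUN 22 of 34 (64.7%, against 2.38%). The list medians of r were 0.65, 0.56 and 0.57, and those over all genes were -0.03, 0.02 and -0.01. The medians over all genes are those of the same 6760. The shares of 5.15% (ATF3), 2.34% (FOS) and 2.38% (JUN) are also the background for such counts in the lists below.

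Markers of cell types were examined in the same way. Of 11 ventricular cardiomyocyte markers 0 had r above 0.5 with ATF3 or JUN and 1 had it with FOS. Of 6 smooth muscle and pericyte markers 2 had it with ATF3, 0 with FOS and 2 with JUN, and of 3 atrial markers 1, 2 and 2 had it. CNN1 and TAGLN, contractile proteins of smooth muscle named here after their values were seen, had r = 0.915 and r = 0.548 with ATF3. The other markers of that list had r = 0.490 (ACTA2), 0.040 (RGS5), -0.057 (DES) and -0.161 (PDGFRB) with ATF3, and the list median was 0.265. Of 8 lymphocyte markers 2 had r above 0.5 with ATF3 and 0 with FOS or JUN, of 6 neutrophil and platelet markers 1 had it with FOS, and of 5 adipocyte and mesothelium markers 1 had it with JUN. The remaining lists (10 endothelial, 7 fibroblast, 6 monocyte and macrophage and 5 red blood cell markers) had 0 with any of the 3 genes. These counts leave out inverse relations, of which the following were named after their values were seen. The endothelial marker CLDN5 had r = -0.618 with ATF3 and -0.517 with JUN. Of the adipocyte and mesothelium list, WT1 had r from -0.530 to -0.514 with the 3 genes, and FABP4 had r = -0.598 with FOS. The mean level of the smooth muscle and pericyte markers ran from 9.39 to 10.28 at baseline and from 9.36 to 9.93 at failure, that of the atrial markers from 5.88 to 8.50 and from 6.50 to 8.29, and that of the lymphocyte markers from 4.42 to 4.69 and from 4.23 to 4.55. The part of these cell types in the levels of the members was not tested.

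**Figure D5:**
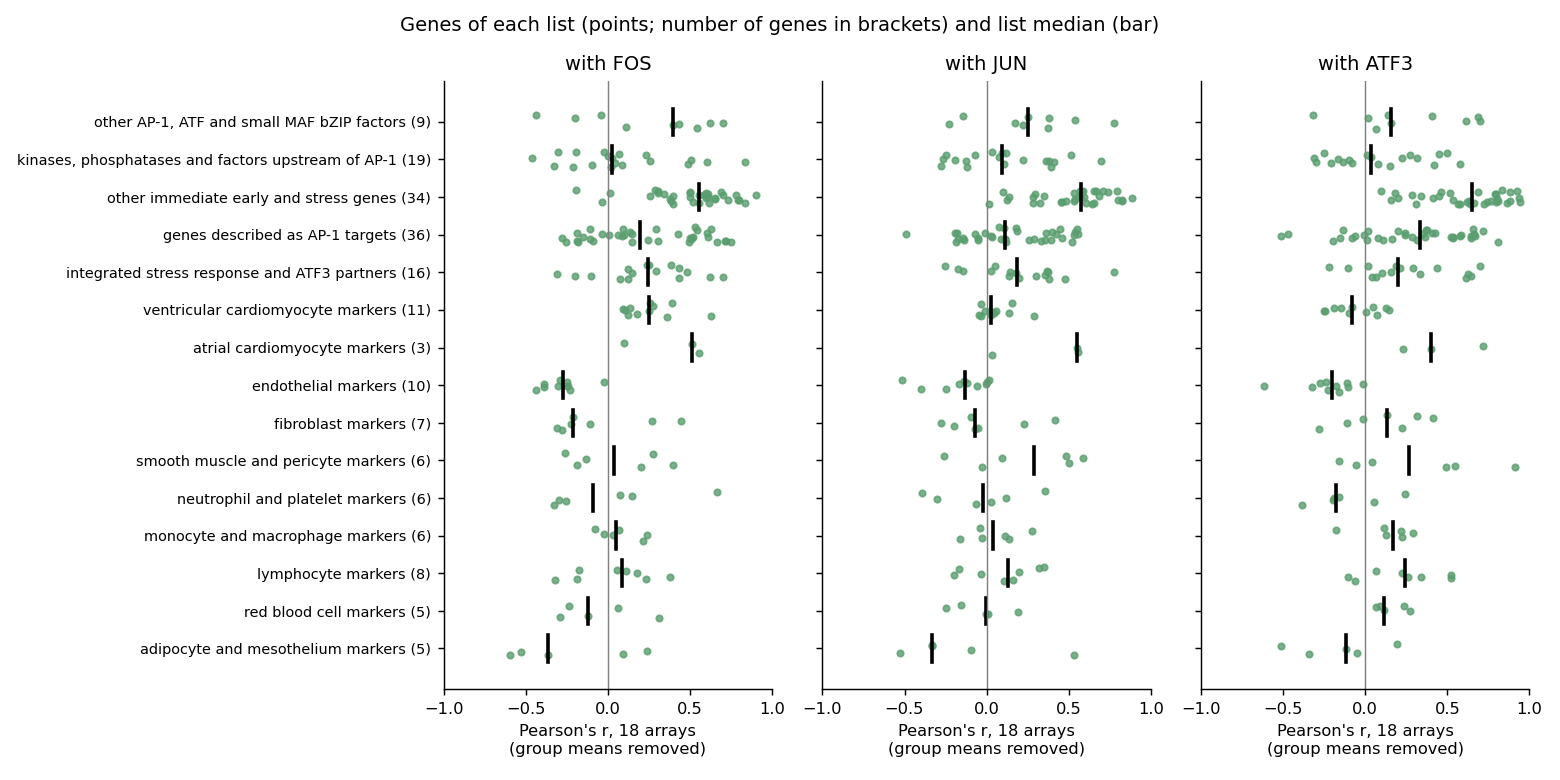
Pearson's r of each gene of a list with FOS, JUN and ATF3 over 18 arrays after removal of group means (1 panel a member, points for genes, black bars for list medians, number of genes in brackets). The immediate early and stress genes have medians of 0.56, 0.57 and 0.65, the 3 atrial markers of 0.51, 0.55 and 0.40, and the 10 endothelial markers of -0.27, -0.13 and -0.20.

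Further dimerisation partners and related bZIP factors were measured for 9 of 29 listed genes. None passed the limma test, 2 had an unadjusted p under 0.05, and 8 were higher and 1 lower with a median change of 0.12. ATF4, which drives ATF3 in the integrated stress response, went from 10.03 ± 0.25 to 10.21 ± 0.28 (SD, n = 9), a change of 0.19 (SE 0.06, adjusted p = 0.571, limma) seen in 8 of 9 pigs. CEBPB and CEBPD, C/EBP factors of the acute response, each had a change of 0.19 (adjusted p = 0.753 and 0.825, limma).

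Upstream kinases, phosphatases and factors were measured for 19 of 47 listed genes, of which 0 passed, 1 had an unadjusted p under 0.05, and 9 were higher and 10 lower (median change -0.01). The stress kinase MAPK9, also called JNK2, had a change of -0.20 (adjusted p = 0.695, limma), DUSP1 one of 0.27 (adjusted p = 0.848, limma) and MAP3K7, also called TAK1, one of 0.09 (adjusted p = 0.908, limma). Of these 19 genes, 1 had r above 0.5 with ATF3 (5.26%, against 5.15% of the genes outside the members). With FOS there were 3 (15.8%, against 2.34%) and with JUN 2 (10.5%, against 2.38%).

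Genes described as AP-1 targets were measured for 36 of 45 listed. Here again 0 passed, 5 had an unadjusted p under 0.05, and 22 were higher and 14 lower with a median change of 0.05. NPPA, the atrial natriuretic peptide, had a change of 1.11 (SE 0.30, adjusted p = 0.432, limma) and was higher in 8 of 9 pigs. The protease inhibitor TIMP1 had a change of 0.29 (adjusted p = 0.690, limma) and thrombomodulin, THBD, one of 0.24 (adjusted p = 0.695, limma). In this list 13 of 36 genes had r above 0.5 with FOS (36.1%, against 2.34% of the genes outside the members). With ATF3 there were 12 (33.3%, against 5.15%) and with JUN 5 (13.9%, against 2.38%).

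The integrated stress response and partners of ATF3 were measured for 16 of 31 listed genes, 7 higher and 9 lower with a median change of -0.01. In the limma fit 0 passed and 5 had an unadjusted p under 0.05. PSAT1, an enzyme of serine synthesis induced by ATF4, had a change of 0.24 (adjusted p = 0.565, limma). With ATF3, 4 of these 16 genes had r above 0.5 (25%, against 5.15% of the genes outside the members).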

How the data were processed

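Total RNA (250 ng per sample) was labelled with the GeneChip 3' IVT Express kit and read on Affymetrix arrays, per the labels' protocols. The authors deposited log2 intensities per probe set. The submitters' processing notes name Partek. How background was corrected and how probe sets were normalized and summarized was not given in the sources used here. Any scaling between arrays would hide a shift common to most transcripts. Precision is limited by the 9 animals.

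Of 24123 probe sets, 188 controls were left out. The probe table gives 1 gene for 10069 of the tested probe sets, several for 198 and none for 13668. For each gene the brightest probe set by mean level was used. Failure was compared with baseline in limma 3.58.1 (R 4.3.3; lmFit and eBayes with a pig block; two-sided; Benjamini-Hochberg over all 23935 tested probe sets). The labels give the pig's number to both of its samples. With group means subtracted, r between a pig's 2 samples was 0.449 to 0.750, and 9 of 9 baseline samples were closest to their own pig's failure sample. Sign-flip tests used all 512 patterns, and correlations used all orders of 9 pigs (scipy 1.17.1). The fits were tested on simulated data.

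Named genes are the members, the 3 genes of each list with the smallest p where fewer than 3 passed, the 3 genes most like each member, and markers for the tissue check. The members and lists were chosen with earlier results of these data known. Alternatives were no block, scalings, filters, other variance models, the mean of all probe sets of a gene, a GAPDH 3' to 5' covariate, either label set alone and leaving out each pig. The relations without pig 5 were added once the data had been seen.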

Additional observations from a re-analysis of the deposited data

Results flagged for a closer look

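One value was far from the others of its group. At failure the FOS level of pig 6 was 12.98, the nearest other animal had 11.24 and the lowest had 9.47. The gap to the next value was 0.4942 of the whole range, barely above the 95% critical value of Dixon's test. Chance flags about 1 in 20 such groups, and 21 groups of 9 values were checked, with 1 value marked in this way. Pig 6 also had the highest FOS level at baseline (12.35).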

How the results depend on the processing

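The count of member probe sets past the threshold was 0 in every alternative, for failure against baseline and for the label sets. The count over all probe sets, 16 as reported, was 3 in label set 1 alone, 0 in label set 2 alone, 0 without the replicate block (440 at an unadjusted p under 0.05 in limma), 9 among probe sets above the median level, 9 with the GAPDH covariate, 10 with a trended robust variance, and 2 to 26 with each pig left out (9 without pig 5, 26 without pig 8, 3 without pig 9, 2 without pig 10, 4 without pig 11 or pig 12, and 5 without pig 13). Without the block, which the pairing by pig calls for, no member call changed. The FOS change reversed to 0.075 in label set 2 alone and to 0.022 with the GAPDH covariate, and with each pig left out it ran from -0.24 to 0.21; FOSL2 reversed to -0.014 with the covariate, and JUN ran from -0.14 to 0.032. ATF3 changes stayed between -0.34 and -0.13 in all alternatives run. With each pig left out, the label set difference ran from -0.22 to 0.50 for FOS, -0.034 to 0.13 for FOSL2, -0.17 to 0.23 for JUN, -0.59 to 0.27 for ATF3, and -0.46 to 0.0072 and -0.13 to 0.014 for the dimmer FOSL1 probe sets; with the mean of all probe sets it was -0.019 for FOSL1. Differences in change ran from -0.34 to 0.14 (FOS minus FOSL1), -0.25 to 0.15 (FOS minus FOSL2) and -0.10 to 0.20 (FOS minus JUN). Relations with the GAPDH change reversed to 0.355 for FOS without the 2 farthest pigs, to -0.379 for FOSL1 and -0.135 for ATF3 in label set 1, and to -0.332 for FOSL1 without pig 5, and FOSL1 at baseline and failure reversed to -0.282 without the 2 farthest pigs. The cause of these reversals was not tested. In label set 1 alone and without the 2 farthest pigs, no reported relation passed by r after adjustment, with fewer pigs in each; without pig 5 the FOS and JUN relation at failure had an adjusted p of 0.066 by exact permutation over 8 pigs (r = 0.835), while the changes of FOSL2 and JUN passed (r = 0.883, adjusted p = 0.0456, exact permutation), as did FOSL2 and ATF3 at baseline with the mean of all probe sets (r = 0.814, adjusted p = 0.0419, exact permutation). Among probe sets with 1 gene, the median baseline percentile was 96.8 for JUN and 66.5 for FOSL2. The intervals, which are not adjusted for the number of probe sets, ran from -0.62 to 0.59 for FOS and from -0.60 to 0.11 for ATF3. They reached about 0.6 log2 units on either side of the estimate for FOS and 0.4 for ATF3. Smaller shifts would not be seen, and larger ones could also miss the adjusted threshold. NPPA, with a change of 1.11 and a standard error of 0.30, near the 0.28 of FOS, had an adjusted p of 0.432 in limma.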

Other observations

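A stable order of the animals was not limited to ATF3 and FOSL2. In the list of other immediate early and stress genes, baseline and failure levels had r of at least 0.9 in 7 of 34 genes, against 4.22% of all probe sets. These genes, named after their values were seen, are KLF10 (r = 0.973), the survival factor MCL1 (r = 0.957), BTG1 (r = 0.949), the kinase PLK2 (r = 0.941), NR4A3 (r = 0.927), IER5 (r = 0.923) and IER3 (r = 0.909). EGR1 and BTG2, in contrast, had r = 0.557 and 0.579, and the change of BTG2 had an SD of 1.08 over the 9 pigs, near that of FOS. CYR61, a matricellular immediate early gene also chosen after its values were seen, had r = 0.937 with ATF3 over the 18 arrays and a baseline level of 9.92 ± 1.33 (SD, n = 9). The difference between these groups of genes was not tested.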
